A study of Mus musculus with 4 samples.

Results

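S100 proteins, annexins and galectins are 3 protein families of calcium signalling, membrane binding and sugar binding, and 10 of their genes that are tied to T cell movement were followed here. S100 proteins are small calcium sensors that work by gripping partner proteins. Annexins dock on the inner face of membranes when calcium rises. Galectins bind galactose-containing sugars, inside the cell and on its surface. S100 proteins and annexins work in pairs, such as S100a10 with Anxa2, and several of these genes are known for higher expression in antigen-experienced than in naive T cells. The genes were chosen by symbol: S100a4, S100a6, S100a10, S100a11, S100a13, Anxa1, Anxa2, Anxa6, Lgals1 and Lgals3. Of these, 9 had a probe set that lists their symbol alone, out of 6137 genes with such a probe set in the series. S100a11 is listed only by a probe set that names several genes, so it has no value here.

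The arrays compared CD8 T cells of the B6.2.16 strain, in which all T cells carry 1 transgenic receptor, specific for the HY antigen of male tissue. The animals were all female and RAG1-deficient, so they form no other T or B cells. The naive preparation was taken directly from lymph nodes, with a stated purity above 85%. The memory preparation began as splenocytes of the same kind of mouse that were stimulated with HY peptide in culture for 4 days, went into female RAG1-deficient hosts, and was taken back 200 days later from spleen and lymph nodes with magnetic beads, with a stated purity above 80%. The hosts make no T or B cells of their own but keep macrophages, granulocytes and other cells. The labels do not say how many mice were pooled, nor whether RNA was shared between arrays. Tissue, culture, transfer, time and sorting differ together between the groups and cannot be told apart. There were 4 Affymetrix arrays, 1 memory and 1 naive on each of 2 mouse chips, A and B, which leaves each group without a replicate on either chip. No error, interval or p-value can be given, and each difference below is one between a pair of arrays. In such preparations fewer cells of a type and less RNA per cell cannot be told apart.

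Values are array intensities, many of them below 0, so a noise floor was set on each chip at the size that 95% of its negative values did not exceed (the higher of both B arrays, and the memory array alone on A). It was 423 on the B arrays and 184 on the memory A array. On B the memory and naive values followed each other (Spearman 0.85 across 6540 gene probe sets, which are not independent replicates). On A they hardly did (0.10 across 6529), and the 55 controls that the chips share matched well between the memory arrays (0.96) and poorly between the naive arrays (0.21). The naive A values were therefore left out, and the A chip gives memory levels only. The labelled T cells showed their markers unevenly. On B, 4 of 6 listed T cell markers were above the floor on 1 array or both. Cd3d read 959 in memory and 1115 in naive. Cd8a read 498 and 352, the naive value under the floor, and Cd3g 254 and 502, the memory value under it. Thy1, at 2847 and 6185, was the only one past 2-fold. Thy1 was among the brightest probe sets of the chip, most of which were also dimmer in memory.

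On the B chip, 8 of the genes had 9 probe sets, of which 7 (6 genes) were above the floor on both arrays. A call needed a 2-fold difference between the arrays and a brighter array at 2 times the floor or above. By this rule 1 of the 7, Lgals3, was higher in memory, beside 6.34% of the 1056 probe sets above the floor on the whole chip. None was lower, beside 10.7% of the chip. The other 2, S100a6 and S100a13, were too dim on both arrays to be called. At 1.5-fold, Lgals3 and Anxa2 were higher, beside 10.3% of the chip, and S100a10 and Anxa1 lower, beside 17.5%. Of the 7 above the floor, 2 had log2 ratios of memory to naive above 0 and 5 below 0. Their median was -0.22, and that of all 1056 was -0.12, of which 60.8% were below 0. As a list, then, the genes had a median slightly below the chip's own, and the call rests on a single gene.

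**Figure D1:**
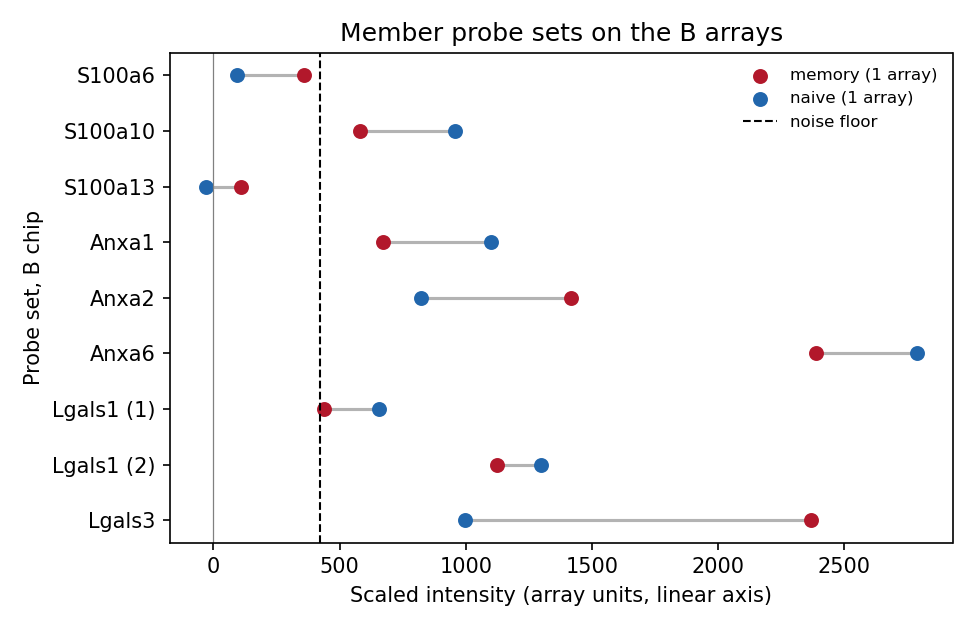
Scaled intensity, on a linear axis in array units, of the 9 member probe sets on the memory (red) and the naive (blue) B array; each point is 1 array, so there are no error bars. The dashed line is the noise floor of 423; S100a6 and S100a13 lie under it on both arrays, and Lgals3 and Anxa2 are the probe sets above it that are brighter in memory.

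Among the galectins, Lgals3 was higher in memory and Lgals1 was not. Lgals3 encodes galectin-3, the galectin with a long collagen-like tail that was first known as the macrophage antigen Mac-2. Its probe set read 2366 in memory and 996 in naive, a log2 ratio of 1.25. Both arrays were well clear of the floor, and the ratio lay between 1.25 and 1.40 under 6 other scalings and floors, always past 2-fold. Of the 1056 probe sets above the floor, 33 had a ratio at least as high, Lgals3 included. Lgals1 encodes galectin-1, a dimer that can trigger the death of activated T cells. Its brighter probe set (x66532_f_at) read 1123 in memory and 1298 in naive, a log2 ratio of -0.21. Its dimmer probe set read 440 in memory, just above the floor, and 655 in naive, a log2 ratio of -0.57. Under the other scalings and floors the brighter one lay between -0.25 and -0.06, and the dimmer one between -0.57 and -0.43. Both Lgals1 ratios were thus below 0, like 60.8% of the 1056, and neither passed 2-fold.

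The pair of Lgals1 ratios differed by 0.37 on the log2 scale. For comparison, 33 genes of the B chip had 2 or more probe sets above the floor on both arrays, and the log2 ratios of their 2 brightest probe sets differed by a median of 0.26, with a 90th percentile of 0.71. This spread is between probe sets on the same arrays and includes no difference between animals or RNA samples. It was computed once, with the reported scaling and floor, and is a difference between ratios, not the size of a single ratio. The log2 ratios of Lgals3 and Anxa2 were larger in size than that 90th percentile and those of Lgals1 and Anxa6 smaller, as reported and under the 6 other scalings and floors (5 for the dimmer Lgals1 probe set). Those of S100a10 (-0.72) and Anxa1 (-0.71) lay close to it as reported. S100a10 passed it as reported and with the floor halved, and Anxa1 only with quantile normalization. Neither passed it under the other settings.

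Lgals3 is also a macrophage gene, and macrophage markers differed in the same direction. Of 11 macrophage and monocyte markers on the B chip, 11 were above the floor on 1 array or both. Of these, 6 were at least 2-fold higher in memory and 0 lower. Over all 462 genes with a single symbol above the floor, 8.87% were higher and 8.66% lower. The summed intensity of the macrophage markers was 28396 in memory and 16411 in naive, and that of the 6 T cell markers 4964.5 and 8529.4. The defining marker Csf1r, the macrophage colony-stimulating factor receptor, read 2722 and 1090. The lowest reading of the list on B was the naive value of Apoe, the lipid carrier apolipoprotein E. It was 260, under the floor (1001 in memory). On the memory A array 6 of 9 markers of the list were above the floor, and Mpeg1 (96), Marco (103) and Fcgr1 (113) were under it. Of 5 granulocyte markers on B, 4 were above the floor and 0 passed 2-fold, with a summed intensity of 9928 in memory and 10714 in naive. Dendritic cell and class II genes went both ways, with 2 of 6 above the floor higher (H2-Ab1 and H2-DMb1) and 1 lower (Cd74), and a summed intensity of 12845 in memory and 17012 in naive. So did erythroid genes, with 1 of 4 higher (Alas2) and 2 lower (Hba-a1 and Hbb-b2), at 6994 in memory and 18200 in naive. Of 3 B lineage markers Ighm alone was above the floor and of 2 NK markers both were, on the naive array only, and 0 of these passed 2-fold. The 7 stromal fibroblast and 3 endothelial markers were all under the floor on both B arrays. The part of RNA from any of these cells in the Lgals3 difference was not tested.

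The annexins also split. Anxa2 encodes annexin A2, which binds membranes and actin and carries S100a10 as its partner. Its probe set read 1416 in memory and 823 in naive, a log2 ratio of 0.78, short of 2-fold. That ratio stayed between 0.74 and 0.93 under the other scalings and floors, and 108 of the 1056 probe sets had one at least as high. Anxa1 encodes annexin A1, a glucocorticoid-induced protein that also acts outside cells on formyl peptide receptors. Its probe set (x07486_s_at) read 672 in memory and 1100 in naive, a log2 ratio of -0.71, which shrank to -0.38 with the floor doubled because the memory value is then under it. Anxa6 encodes annexin A6, an annexin with a doubled core that binds membranes and actin. Its probe set (X13460_s_at) read 2388 in memory and 2787 in naive, a log2 ratio of -0.22, and the sign turned to 0.12 with intensity-dependent scaling. On this pair of arrays Anxa2 was thus brighter in memory and Anxa1 dimmer, neither by 2-fold. Anxa6 was bright in both preparations with no settled direction.

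**Figure D2:**
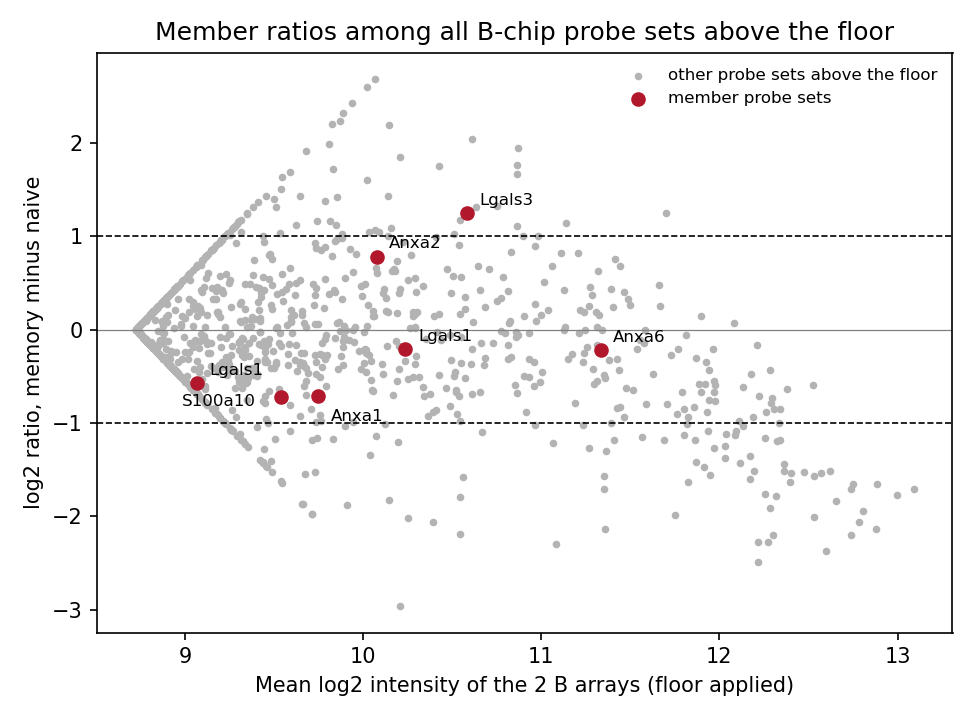
Log2 ratio of memory to naive against the mean log2 intensity of both B arrays, with dimmer values raised to the floor, for the 1056 probe sets above the floor (grey) and the 7 member probe sets among them (red). The dashed lines mark 2-fold, and Lgals3 alone among the members lies outside them. The brightest grey points bend to negative ratios. This bend reaches Anxa6, the brightest member, whose ratio moved from -0.22 to 0.12 with intensity-dependent scaling.

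The S100 members gave little on the B chip. S100a10 encodes the annexin A2 partner that has lost calcium binding and stays switched on. Its probe set read 580 in memory and 957 in naive, a log2 ratio of -0.72, in the direction opposite to that of Anxa2. With the floor doubled, which puts the memory value under it, the ratio was -0.18. S100a6 encodes calcyclin, a binder of the ubiquitin ligase adaptor Cacybp. Its probe set read 357 in memory and 94.7 in naive, both under the floor, so no fold can be given. With the floor halved the memory value lay above it and the log2 ratio was 0.76, against a naive value still under the floor. S100a13, which takes part in the release of growth factors that lack a secretion signal, read 109 and -30.2 (X99921_s_at), under the floor on both arrays. A difference between the preparations was therefore not detectable for S100a6 and S100a13.

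**Figure D3:**
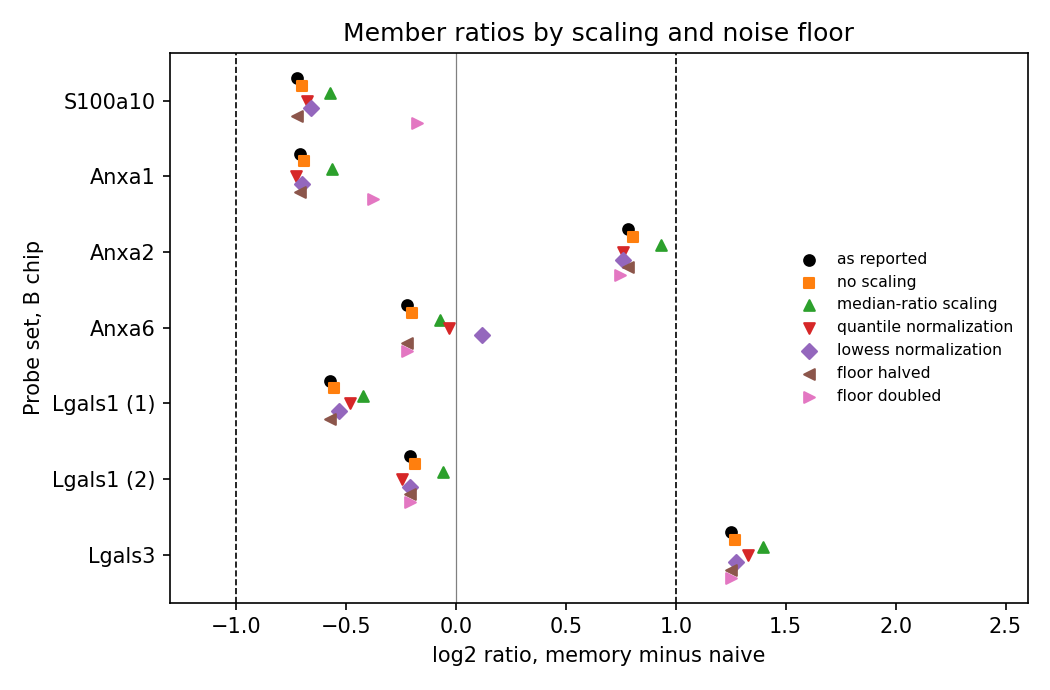
Log2 ratio of memory to naive (horizontal axis) of the 7 member probe sets above the floor on B, as reported (black) and under 6 other scalings and noise floors (coloured symbols); dashed lines mark 2-fold. Lgals3 stays past 2-fold throughout, Anxa6 crosses 0, and S100a10 and Anxa1 shrink with the doubled floor; the dimmer Lgals1 probe set has no point there because both its values fall under that floor.

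The A chip showed which members could be read in the memory preparation, with no naive counterpart. It held 8 probe sets for 7 of the genes, and 4 of the 8 were above the floor of 184, beside 26.7% of the 6529 gene probe sets of that array. S100a6 (m37761_s_at) read 1853, or 10.1 times the floor. Anxa2 (m14044_f_at) read 752. S100a4 (d00208_s_at), which encodes a binder of the non-muscle myosin heavy chain Myh9 and has no probe set with its symbol on B, read 469. S100a10 (M16465_f_at) read 284 and was no longer above the floor when it was doubled to 368 or taken from the noisier A array (297). Probe sets listed for S100a4, S100a6 and Anxa2 thus read above each of these floors on the memory A array. Whether S100a4 or S100a6 differs from naive cannot be given from these arrays.

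The other 4 A-chip probe sets were under the floor. Lgals3 read -7 and 61 with its pair (j03723_rc_at and j03723_rc_g_at), Anxa1 read -28 (M24554_rc_at) and S100a13 read 38 (D18141_rc_at). For Lgals3 and Anxa1 this went against the B chip, where the memory array read both above the floor. For S100a6 the chips disagreed the other way, but the B floor of 423 comes from the naive array. By the memory B array's own floor of 287, S100a6 (357) was above the floor on both memory arrays. Probe sets of 1 gene can read different stretches of its transcripts. Only their place above or under the floor was set side by side here, not their levels. All 4 dim probe sets have "rc" in their name, which in this naming marks probes made to the reverse complement of the database entry, and 0 of the 4 bright ones do. Across the memory A array, 19.2% of 1260 such probe sets were above the floor, and 28.4% of 5269 others. Among probe sets made from entries named with a single letter D, J, K, L or M, the kind behind these 4, the counts were 5 of 134 and 276 of 1131. None of the 9 member probe sets on B has this mark. This grouping was chosen after the values were seen, and its part in the low readings was not tested.

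**Figure D4:**
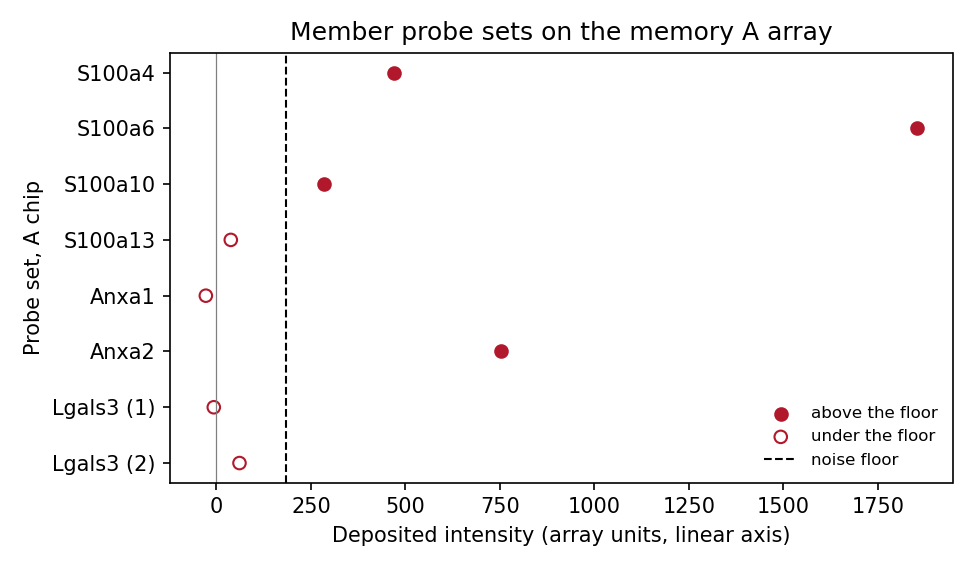
Deposited intensity, on a linear axis in array units, of the 8 member probe sets on the memory A array (1 array, no error bars); filled points are above the noise floor of 184 (dashed line) and open points under it. S100a6, Anxa2, S100a4 and S100a10 are above it, and both Lgals3 probe sets, Anxa1 and S100a13 are not.

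What a probe set reads limits the named genes. Of the 9 probe sets on B, 5 (Lgals3, Anxa2, S100a10 and both of Lgals1) carry the letter f, the class whose probes match a family of similar sequences, and the other 4 carry the letter s, for probes shared by several transcripts. Without the f class 4 probe sets remained, of which Anxa1 and Anxa6 were above the floor, 0 were called and the median log2 ratio was -0.47. The single call of the group, Lgals3, therefore comes from a probe set that related sequences could add to, by an amount that was not tested. The 4 A-chip probe sets above the floor carry these letters too, f for Anxa2 and S100a10 and s for S100a4 and S100a6.

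The relatives of these genes were mostly dim or lay on the A chip alone. Of the other S100 genes, 2 were on B: S100a8, a subunit of the granulocyte protein calprotectin, read 3252 in memory and 2462 in naive, a log2 ratio of 0.40 that passed 2-fold only with quantile normalization (1.03), and S100a14 was under the floor. On the memory A array 2 of 5 other S100 genes were above the floor, S100a8 at 2483 and its calprotectin partner S100a9 at 2162, and S100pbp, the gene of an S100-binding protein on the same list, read 111, under it. Of other annexins, Anxa8 was under the floor on B, and 1 of 5 was above it on memory A, the membrane fusion annexin Anxa7 at 356. Of other galectins and their ligands, Lgals3bp, a secreted glycoprotein that galectin-3 binds, read 1172 in memory and 614 in naive on B. Its log2 ratio of 0.93 was just short of 2-fold. It passed 2-fold with median-ratio scaling (1.08) and fell to 0.47 with the floor doubled. On memory A, Lgals9, a galectin with a pair of sugar-binding domains, read 428, and Lgals2 and Lgals4 were under the floor. Lgals3 and Lgals3bp thus leaned to memory on B, whereas Lgals1 did not.

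Partners of these proteins in cell movement lay on either side of 0 on the B chip. Of 44 listed genes 18 were on B, 11 were above the floor, 1 was at least 2-fold higher in memory and 0 were lower. Over all 462 genes with a single symbol above the floor, 8.87% were higher and 8.66% lower. The median log2 ratio of the 11 was -0.0057. The one past 2-fold was Itgb1, the integrin beta-1 chain, which read 1554 in memory and 741 in naive, a log2 ratio of 1.07 that fell to 0.88 with the floor doubled. Of the cytoskeletal genes, vimentin (Vim) read 4013 and 3618, profilin (Pfn1) 1833 and 1909, and the LIM-domain protein gene Crip1 982 and 985. Cofilin (Cfl1), which severs actin filaments, had a log2 ratio of -0.89, the actin gene Actg1 one of -0.64 and the membrane linker ezrin (Ezr) one of -0.51. Cfl1 and Actg1 were among the brightest probe sets of the chip, most of which had log2 ratios below 0. Radixin (Rdx), talin (Tln1) and integrin beta-2 (Itgb2) had log2 ratios of 0.33, 0.27 and 0.21. Cd44, an adhesion receptor of antigen-experienced T cells, and Myh9 were under the floor on both B arrays, although Myh9 read 1725 on the memory A array. The giant scaffold Ahnak, which the S100a10 and Anxa2 complex binds, was on A alone and read 1498, among 15 of 26 listed partners above the floor there, beside 29.5% of the 4775 genes with a single symbol on that array.

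By gene order in a RefSeq table of assembly GRCm38.p6, the S100 members lie on a single chromosome, each with another S100 gene next to it: S100a5 separates S100a4 from S100a6, and S100a10 is next to S100a11. The annexin and galectin members lie on chromosomes of their own. The neighbours S100a4 and S100a6 were both above the floor on memory A, although S100a6 was under it on both B arrays. S100a13 of the same run of genes was under it on both chips, on A with a probe set of the rc kind.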

How the data were processed

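Per the labels' protocols, cRNA for Affymetrix hybridisation was prepared from Trizol-extracted total RNA. The authors deposited 1 whole-number intensity per probe set and array; software, background subtraction and scaling: not given in the sources used here. Symbols came from the platform annotation and none changed against the RefSeq table of GRCm38.p6. All 4 columns are named by sample; titles gave the groups, and the table that holds a column gave its chip.

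Controls were dropped. Both B arrays were brought to a common mean after trimming 2% at each end (multiplied by 0.993 and 1.01). Log2 ratios of memory to naive were formed after raising dimmer values to the floor. Memory A values were used as deposited. Each listed relative or partner was represented by its brightest probe set. Every member probe set is named, as is every partner past 2-fold. Vim, Pfn1, Crip1, Cfl1, Actg1, Ezr, Rdx, Tln1, Itgb2, Cd44, Myh9 and Ahnak were added as examples after their values were seen. Members and lists were chosen with earlier results of these data known. Calls were tested on simulated data. The lowess span was 0.4; Python 3.11.15, pandas 2.3.3 and statsmodels 0.14.6 were used. The number of arrays limits the precision.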

Additional observations from a re-analysis of the deposited data

How the results depend on the processing

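Under 4 other scalings and the floor halved or doubled, 1 member probe set, Lgals3, was higher on the B chip and 0 were lower each time, and no called ratio turned. At 1.5-fold, 2 were higher and 2 lower, beside 10.3% and 17.5% of the chip, and at 3-fold 0 were higher. Without sequence-family probe sets, an alternative chosen after the data were seen, 0 were higher and the median was -0.47. With median-ratio scaling the member median was -0.073, when that of all probe sets above the floor was -0.012. With quantile normalization these medians were -0.25 and -0.032, and with intensity-dependent scaling -0.21 and -0.053. On the memory A array the count was 4 with the floor halved, 3 with it doubled or taken from the noisier array, and 0 of 3 among probe sets without a class letter. Those 3 all have rc in their name, so this count cannot separate the class letter from that mark. No B probe set of the members lacks a class letter, so that alternative gave no value. No array could be left out, with 1 per group and chip. No paired analysis was possible because the labels number no replicates and each group has 1 array per chip.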
